A study of Homo sapiens with 6 samples.

Results

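The 38 genes described here code for lysosomal enzymes, proteins of the lysosomal membrane, the transcription factors that control them and the machinery of autophagy. They were chosen by gene name as a compartment known to expand in senescent cells, and all 38 were found among the 34644 gene names of the count tables. The values came from bulk RNA-seq of HK-2 cells (an immortalized cell line from human proximal tubule), collected 7 days after 8 Gy of X-rays. The control group, IR+NC-LV, carried a negative control lentivirus (n = 3), and the PRDM16 group, IR+PR-LV, a lentivirus that overexpresses PRDM16, a zinc finger regulator of transcription (n = 3). Both groups were irradiated and were selected with puromycin for cells that carry a lentivirus. No unirradiated library was analysed here, so the effect of irradiation itself could not be read. The comparison asked whether transcripts of this compartment differed between irradiated cells with and without added PRDM16.

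The lysosome is the acidic compartment in which a cell degrades proteins, glycans and lipids, and in autophagy a membrane (the phagophore) closes around cytoplasmic material and delivers it there. A proton pump acidifies the lysosome, and the transcription factors TFEB and TFE3 switch on its genes when the nutrient-sensing kinase mTORC1 releases them. The proximal tubule depends on this system, since its cells take up and degrade filtered protein. Lysosomal mass grows in senescent cells, and their classical stain, senescence-associated β-galactosidase (SA-β-gal), reads the activity of the lysosomal enzyme coded by GLB1.

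TFEB and TFE3 bind the palindrome TCACGTGA, the core of the CLEAR element of lysosomal promoters, which contains the shorter E-box CACGTG. Promoter windows from 250 bases before to 50 bases after the start, taken from RefSeq on GRCh38.p14, matched 31 of the 38 genes (38 windows, since some genes have several starts), and HEXA, CTSS, CTSB, ASAH1, LAMP2, ATP6V1A and ATP6V1H had no entry. TCACGTGA was present in 6 of these 38 windows (15.8%), against 0.98% of all 35116 windows of the same length and 1.62% of the windows of genes tested in these cells. CACGTG alone or within it was present in 7 of the 38 windows (18.4%), against 7.26% of all windows and 9.17% of those of genes tested. Both motifs read the same on either strand. The 6 genes with TCACGTGA were MCOLN1, LAMP1, GAA, ATP6V0D1, CTSA and ATG3, and CTSD held only CACGTG. These sites are shown because they mark the members that carry the recognition sequence of 2 other members, TFEB and TFE3, and the capitals mark the motif. GAA and LAMP1 each held 2 TCACGTGA sites, of which 1 is printed.
MCOLN1 (chr19:7522573-7522598, plus strand): cagaggcggTCACGTGAggggctctg
MCOLN1 (chr19:7522600-7522625, plus strand): gctaccgggTCACGTGAccgaggcac
LAMP1 (chr13:113297201-113297226, plus strand): cccgcgggaTCACGTGAcgcccgggc
GAA (chr17:80101495-80101520, plus strand): gaggccgcgTCACGTGAcccaccgcg
ATP6V0D1 (chr16:67481201-67481226, minus strand): cccttatggTCACGTGAggcgcttgc
CTSA (chr20:45891300-45891325, plus strand): cgccggagtTCACGTGActcgtacac
ATG3 (chr3:112561942-112561967, minus strand): agtctagtgTCACGTGAggccccggt
CTSD (chr11:1763960-1763983, minus strand): ggccgcgccCACGTGaccggtccg

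The total count per library lay between 13407074 and 28540041, and no pair of replicates agreed within sampling noise. The labels do not say whether the replicates came from separate cultures, so p-values measure the spread between these libraries, which may be technical. PRDM16 had 2, 0 and 1 counts in the control libraries and 14, 10 and 8 in the PRDM16 libraries, a ratio of 8.51 between the groups (95% exact interval 2.66 to 43.4, for counting error only). Its level in the PRDM16 libraries was low, at 0.834, 0.358 and 0.435 CPM (the count scaled to the library's total with edgeR's TMM factor). The groups did not overlap (p = 0.1 by a 2-sided exact permutation test, which cannot go lower with 3 libraries a group). Of the 7 defining proximal tubule markers, GGT1 was present at 50.5 to 70.7 CPM. AQP1, CUBN, SLC34A1 and SLC5A2 were low, with means of 2.45, 1.21, 0.632 and 0.643 CPM over the 6 libraries. LRP2 held 3 counts and ANPEP 19 counts in the 6 libraries together. The 7 markers of macrophages and leukocytes, cells rich in lysosomes, summed to 13.1 to 18.4 CPM in the control group and 8.91 to 10.9 CPM in the PRDM16 group. In that list PTPRC held 3 and 7 counts over the libraries of the control and PRDM16 groups, TYROBP 0 and 1 and CD163 3 and 2. CSF1R was at 6.56 ± 0.653 and 5.57 ± 0.429 CPM (SD, n = 3), without overlap between the groups. CD14 (2.19 and 1.98 CPM) and FCER1G (2.12 and 1.79 CPM) were also detected, with overlapping groups. The difference in the sum came mainly from ITGAM (4.17 ± 2.33 and 0.670 ± 0.225 CPM, SD, n = 3). The simple epithelial markers KRT8, KRT18, KRT19 and CDH1 summed to 987 to 1307 CPM, nearly all of it from the keratins. CDH1 was low, with 25 and 46 counts over the control and PRDM16 libraries and a mean of 0.626 CPM over all 6. The 3 fibroblast markers summed to 77.4 to 117 CPM, nearly all of it LUM.

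The transcripts of the 38 genes were abundant in these irradiated cells. The median member had 88.9 TPM (the count per exon length, scaled to the library), against 16.3 TPM over the 15340 genes and gene copies that passed the filter on low counts. All 38 genes passed that filter, and their median stood at the 85.0 percentile of level. The 147 tested genes of the rest of the pathway, described below, were lower, with a median of 34.8 TPM at the 67.2 percentile. Among the 38 genes the range ran from 4.69 TPM for TFEB to 1326 TPM for CTSZ. The summed level of the 38 genes was 6581, 6414 and 6289 TPM in the control libraries and 6189, 6205 and 6053 TPM in the PRDM16 libraries. On the deposited TPM scale the median log2 ratio of all genes tested was itself -0.036, against 0.0045 with TMM, and 24 of the 38 members had a lower mean in the PRDM16 group, against 17 with TMM. The cathepsins held 3016 ± 103 of this in the control group and 2895 ± 109 TPM in the PRDM16 group (SD, n = 3).

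**Figure D1:**
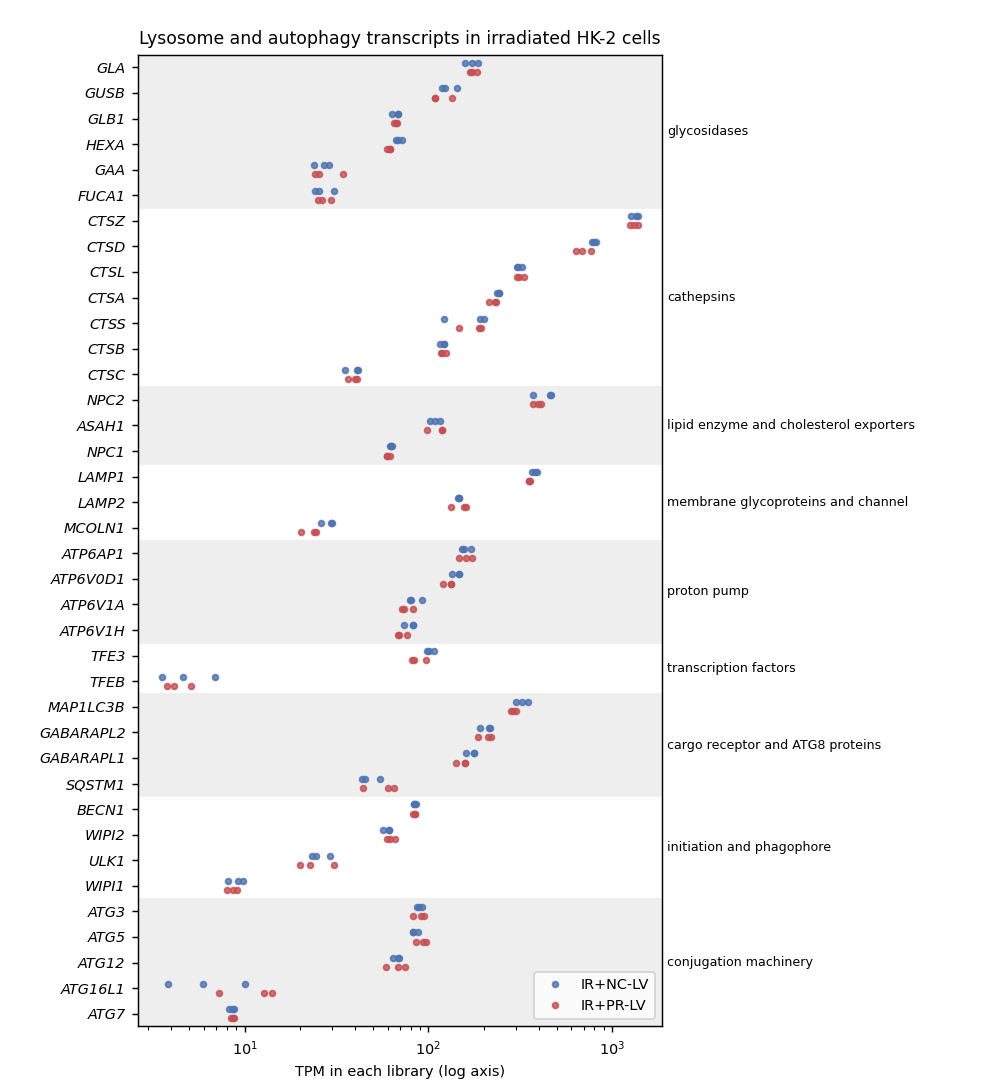
Level of each of the 38 genes in each of the 6 libraries, in TPM on a log axis, ordered by role (blue, IR+NC-LV; red, IR+PR-LV; each point is 1 library). CTSZ has the highest level, 1326 TPM on average, and TFEB the lowest, 4.69 TPM, and for most genes the 2 groups lie over each other.

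Between the groups, none of the 38 genes passed the threshold, an adjusted p-value under 0.05 over all 15340 genes and gene copies tested. The lowest adjusted p among them was 0.424 (edgeR quasi-likelihood test with Benjamini-Hochberg adjustment), and over all genes 10 passed (0.0652%). DESeq2 also gave no member past the threshold. The log2 fold change (positive where the PRDM16 group was higher) was above 0 for 21 members and below 0 for 17, and 7 of the 21 turned below 0 with total-count scaling. Its median was 0.03, with quartiles of -0.11 and 0.06, against a median of 0.00 and quartiles of -0.11 and 0.10 over all genes tested. At an unadjusted p under 0.05 there were 4 members (10.5%) against 10.5% of all genes. They were ATG5 and ATG16L1 above 0, where 4.55% of all genes were, and MCOLN1 and TFE3 below 0, where 5.97% were. DESeq2 gave 3 members at that level (TFE3, SQSTM1 and ATG5). The count rested on single libraries, since it was 1 without control replicate 1, 2 without control replicate 2 or PRDM16 replicate 2, 9 without PRDM16 replicate 1 and 0 without PRDM16 replicate 3.

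The groups did not overlap, so that each library of one was beyond every library of the other, for 5 members (13.2%), against 17.0% of all genes. All 5 were lower in the PRDM16 group (LAMP1, MCOLN1, ATP6V0D1, TFE3 and MAP1LC3B), where 9.54% of all genes were, and none was higher, where 7.46% were. For 33 of the 38 members the 95% interval of the log2 fold change lay within 0.5 of zero on either side. The 5 whose intervals reached past that limit were CTSS, MCOLN1, TFEB, SQSTM1 and ATG16L1, and of these only the interval of ATG16L1 also reached past 1.

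**Figure D2:**
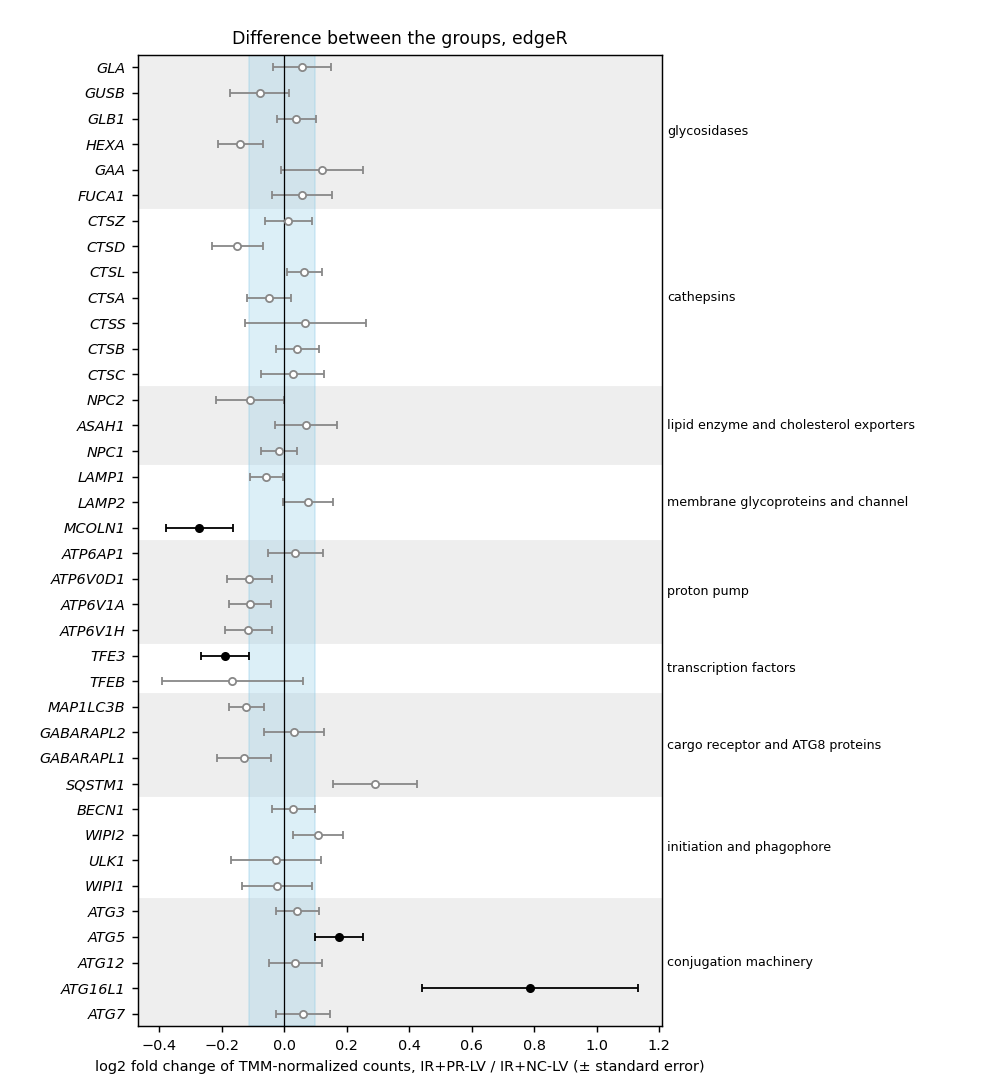
Log2 fold change of each gene (IR+PR-LV over IR+NC-LV) from edgeR, with its standard error as bars, ordered by role. Filled points have an unadjusted p under 0.05 (ATG5, ATG16L1, MCOLN1 and TFE3), and the blue band spans the quartiles of all genes tested, -0.11 to 0.10.

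GLB1 codes for the acid β-galactosidase that releases galactose from gangliosides and that the SA-β-gal stain detects. The gene occupies 32961108 to 33097146 of chromosome 3 (GRCh38, minus strand). The TMM-normalized count was 69.2, 65.0 and 64.3 CPM in the control libraries and 68.4, 67.4 and 68.0 CPM in the PRDM16 libraries. All 3 PRDM16 values lay within the range of the control values. The log2 fold change was 0.04 (standard error, SE, 0.06, 95% interval -0.10 to 0.18, adjusted p = 0.863 from edgeR), and a 2-sided exact permutation test of the means gave p = 0.4. With total-count scaling in place of TMM the sign changed, to -0.0030. Its promoter entry held neither motif, and 7.31% of its exon bases overlap TMPPE on the same strand.

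The other 5 glycosidases cleave sugars from glycolipids, glycogen and glycosaminoglycans, and none of the 6 had an unadjusted p under 0.05. GLA, the α-galactosidase missing in Fabry disease, was the most abundant, at 186, 174 and 158 TPM in the control group and 169, 184 and 172 TPM in the PRDM16 group. FUCA1, which removes fucose, was the least, at 25.6, 24.2 and 30.7 TPM against 29.6, 26.3 and 25.2 TPM. The groups overlapped for both genes. HEXA, the subunit of β-hexosaminidase that is mutated in Tay-Sachs disease, had the lowest log2 fold change of the group, -0.14 (SE 0.07, adjusted p = 0.528 from edgeR). GUSB (β-glucuronidase) had -0.08, and GAA, the enzyme that degrades lysosomal glycogen and 1 of the genes with TCACGTGA, had 0.12.

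The cathepsins are the proteases of the lysosome, and none of the 7 had an unadjusted p under 0.05. CTSZ, a carboxypeptidase, was at 1386, 1352 and 1272 TPM in the control group and 1376, 1315 and 1252 TPM in the PRDM16 group. CTSC, which activates other proteases by trimming them, was the lowest, at 41.2, 41.5 and 35.0 TPM against 36.4, 41.0 and 39.7 TPM. The groups overlapped for both genes. The aspartic protease CTSD, the second most abundant, had 795 ± 19.9 TPM in the control group and 698 ± 69.2 TPM in the PRDM16 group (SD, n = 3), a log2 fold change of -0.15 (SE 0.08, adjusted p = 0.558 from edgeR). The other cathepsins, CTSL, CTSA, CTSS and CTSB, had log2 fold changes between -0.05 and 0.07. CTSA, the protective protein that stabilizes β-galactosidase, shares 30.9% of its exon bases with NEURL2 and 21.7% with SPATA25 on the opposite strand. CTSS, better known from antigen-presenting cells, varied between replicates, from 122 to 200 TPM in the control group.

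NPC2 and NPC1 pass cholesterol out of the lysosome, and ASAH1 is its acid ceramidase. NPC2 was at 464, 459 and 371 TPM in the control group and 370, 411 and 393 TPM in the PRDM16 group. NPC1 was at 62.6, 62.1 and 63.5 TPM against 59.8, 61.5 and 59.9 TPM. The NPC1 values were lower in each PRDM16 library on the TPM scale, while the TMM-normalized CPM of the groups overlapped. The log2 fold changes were -0.11 for NPC2, -0.02 for NPC1 and 0.07 for ASAH1, with adjusted p-values of at least 0.769 from edgeR.

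The membrane proteins included MCOLN1, the member with the lowest log2 fold change. MCOLN1 (chromosome 19, 7522624 to 7534009, plus strand) codes for the channel that releases calcium from the lysosome, which activates TFEB through calcineurin. Its promoter window held the pair of TCACGTGA sites printed above, which lie 41 and 14 bases before the start. The TMM-normalized count was 18.9, 17.1 and 17.8 CPM in the control group and 15.4, 16.0 and 13.0 CPM in the PRDM16 group. Every PRDM16 library lay below every control library. The log2 fold change was -0.27 (SE 0.11, 95% interval -0.51 to -0.03), with an unadjusted p of 0.0306 and an adjusted p of 0.424 from edgeR. When 1 library at a time was left out it ranged from -0.34 to -0.19, with an unadjusted p under 0.05 in 3 of 6 fits.

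LAMP1, a heavily glycosylated protein that lines the lysosomal membrane and serves as its marker, was at 317, 312 and 306 CPM in the control group and 299, 305 and 294 CPM in the PRDM16 group. The groups did not overlap, but the difference was small, with a log2 fold change of -0.06 (SE 0.05, adjusted p = 0.747 from edgeR). Its promoter window held 6 copies of CACGTG, of which 2 were within TCACGTGA. GRTP1, on the opposite strand, covers 15.5% of its exon bases. LAMP2, its paralog that also serves chaperone-mediated autophagy, had 413 ± 22.2 CPM in the control group and 436 ± 40.7 CPM in the PRDM16 group (SD, n = 3), a log2 fold change of 0.08.

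The proton pump is the V-ATPase, whose cytosolic sector splits ATP and whose membrane sector moves protons. ATP6AP1, an accessory subunit, was the most abundant of the 4 members, at 171, 157 and 152 TPM in the control group and 173, 160 and 147 TPM in the PRDM16 group. ATP6V1H, a regulatory subunit of the cytosolic sector, was the least abundant, at 82.3, 74.0 and 82.4 TPM against 76.8, 68.3 and 69.3 TPM. The groups overlapped for both genes. ATP6V0D1, which joins the sectors, was at 89.8, 84.0 and 83.3 CPM in the control group and 82.2, 82.4 and 73.2 CPM in the PRDM16 group, without overlap. ATP6V0D1, ATP6V1A (the catalytic subunit) and ATP6V1H had log2 fold changes between -0.12 and -0.11, and ATP6AP1 had 0.04. None had an unadjusted p under 0.05, and the lowest adjusted p was 0.612 from edgeR.

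TFE3 and TFEB differed widely in level, and both had log2 fold changes below 0. TFE3 (chromosome X, 49028726 to 49043357, minus strand) was at 98.7, 101 and 108 TPM in the control group and 96.6, 83.9 and 81.7 TPM in the PRDM16 group. TFEB was at 3.56, 4.62 and 6.95 TPM against 5.09, 3.78 and 4.13 TPM. Hence TFE3 was the more abundant factor per exon length in every library. On the TMM-normalized scale TFE3 was at 101, 105 and 103 CPM in the control group and 100.3, 87.9 and 83.6 CPM in the PRDM16 group. The groups did not overlap, with the values of PRDM16 replicate 1 and control replicate 1 next to each other. The log2 fold change of TFE3 was -0.19 (SE 0.08, 95% interval -0.36 to -0.02), with an unadjusted p of 0.0345 and an adjusted p of 0.435 from edgeR. Without PRDM16 replicate 1 it was -0.27 with an unadjusted p of 0.00135, the only 1 of 6 such fits under 0.05. TFEB had a log2 fold change of -0.17 (SE 0.23, adjusted p = 0.832 from edgeR), which turned to 0.07 without control replicate 3.

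**Figure D3:**
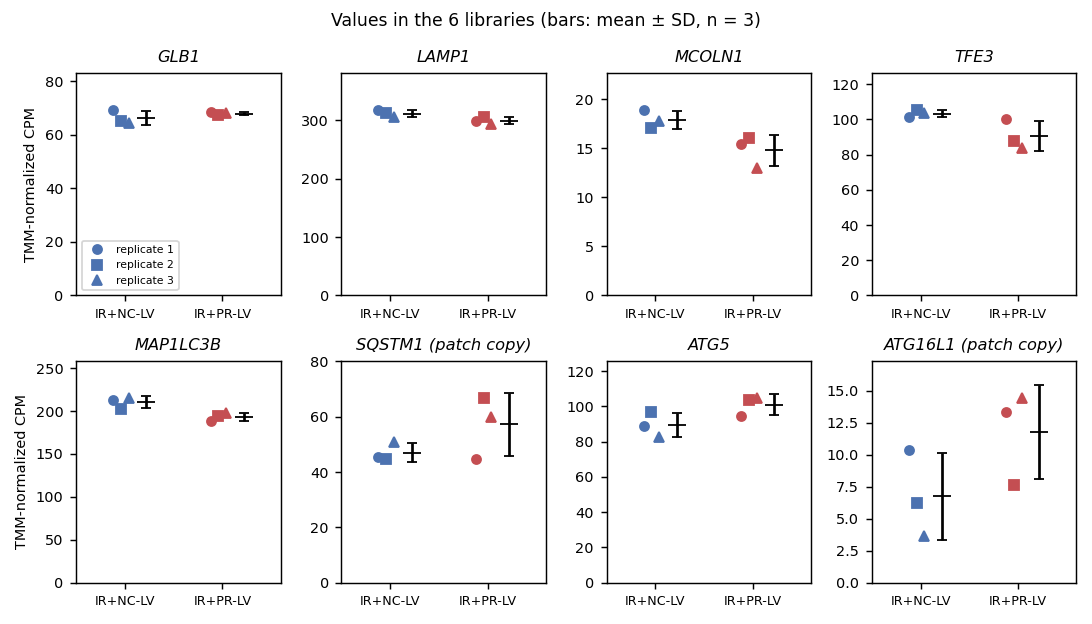
TMM-normalized CPM of 8 members in each library, with the mean and SD of the 3 libraries of each group beside the points and each axis starting at 0. GLB1 lies between 64.3 and 69.2 CPM in both groups, MCOLN1 and TFE3 are lower in all IR+PR-LV libraries, and SQSTM1 and ATG16L1 spread widely within groups.

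Members with the TFEB and TFE3 motif had log2 fold changes on both sides of 0. The 6 members with TCACGTGA had a median of -0.05, with 2 above 0 and 4 below, and a range from -0.27 (MCOLN1) to 0.12 (GAA). The 25 members with a promoter entry and without the motif had a median of 0.03, with 15 above 0 and 10 below. No test of this split was made.

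The ATG8 proteins coat the autophagosome membrane and SQSTM1 (p62) is a receptor that ties ubiquitinated cargo to them. MAP1LC3B, the LC3 protein measured in most autophagy assays, was at 212, 203 and 216 CPM in the control group and 188, 194 and 197 CPM in the PRDM16 group. Without overlap between the groups, the log2 fold change was -0.12 (SE 0.06, unadjusted p = 0.0561, adjusted p = 0.485 from edgeR). GABARAPL1 and GABARAPL2, of the second ATG8 branch, had -0.13 and 0.03. SQSTM1 was at 45.3, 44.7 and 51.0 CPM in the control group and 44.7, 66.9 and 60.1 CPM in the PRDM16 group. Of the PRDM16 libraries, 2 were above every control library and the remaining library was level with the lowest. Its log2 fold change was 0.29 (SE 0.14, unadjusted p = 0.0595, adjusted p = 0.491 from edgeR), and it ranged from 0.16 without PRDM16 replicate 2 to 0.44 without PRDM16 replicate 1. MRNIP on the opposite strand covers 18.7% of its exon bases. Hence the receptor and LC3 had log2 fold changes of opposite sign, neither past the threshold.

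The initiation genes start the phagophore, and none of the 4 had an unadjusted p under 0.05. BECN1, the beclin subunit of the lipid kinase complex that marks the site, was at 85.8, 83.6 and 83.5 TPM in the control group and 84.4, 84.6 and 82.3 TPM in the PRDM16 group. WIPI1, which reads the lipid made by that kinase, was at 9.75, 8.11 and 9.16 TPM against 8.07, 9.07 and 8.67 TPM. The groups overlapped for both genes. WIPI2, which recruits ATG16L1 to the phagophore, had a log2 fold change of 0.11, and ULK1, the kinase at the head of the pathway, had -0.03. CNTD1 on the opposite strand covers 35.3% of the exon bases of BECN1, and ARSG covers 18.5% of those of WIPI1.

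The conjugation machinery attaches ATG8 proteins to lipid, and all 5 of its members had log2 fold changes above 0, except that ATG12 turned to -0.0058 with total-count scaling and to -0.04 without PRDM16 replicate 3. ATG5, which forms the ligase with ATG12 and ATG16L1, was at 88.8, 96.6 and 82.8 CPM in the control group and 94.3, 104 and 105 CPM in the PRDM16 group. The groups overlapped by 1 library on each side. Its log2 fold change was 0.17 (SE 0.08, 95% interval 0.00 to 0.35), with an unadjusted p of 0.0482 and an adjusted p of 0.473 from edgeR. ATG3, the enzyme that hands ATG8 to the lipid, was at 88.8, 87.2 and 92.6 TPM in the control group and 82.6, 91.2 and 95.2 TPM in the PRDM16 group. ATG7, the activating enzyme for both conjugation reactions, was at 8.82, 8.52 and 8.18 TPM against 8.66, 8.81 and 8.47 TPM. The groups overlapped for both, and ATG3, ATG7 and ATG12 had log2 fold changes between 0.04 and 0.06. VGLL4 on the opposite strand covers 17.0% of the exon bases of ATG7.

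ATG16L1, the scaffold that places the ligase on the membrane, had the highest log2 fold change of the 38 genes and the least certain. Its count was 174, 131 and 51 in the control libraries and 224, 213 and 266 in the PRDM16 libraries. These were 10.4, 6.22 and 3.67 CPM and 13.3, 7.62 and 14.5 CPM, so that PRDM16 replicate 2 lay below control replicate 1. The log2 fold change was 0.79 (SE 0.35, 95% interval 0.00 to 1.57), with an unadjusted p of 0.0489 and an adjusted p of 0.474 from edgeR. It ranged from 0.51 without control replicate 3 to 1.22 without control replicate 1. Without the filter on low counts its adjusted p was 0.026, which made it the only member past the threshold in any of the 14 other settings tried.

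All counts of ATG16L1 came from a second listing of the gene on a patch scaffold, a corrected stretch of sequence published beside the chromosomes. The listing on chromosome 2 (233251647 to 233295674, plus strand) held 0 counts in every library. CTSB and SQSTM1 were also listed at both kinds of place, and the share of counts on the chromosome was 2.40 to 4.79% for CTSB and 8.75 to 14.8% for SQSTM1. The copy with the most counts stands for the gene above. The minor copy of CTSB, a broad cysteine protease, had 5.60, 5.79 and 4.03 CPM in the control group and 5.12, 9.23 and 8.48 CPM in the PRDM16 group. Its log2 fold change was 0.56 (SE 0.23, unadjusted p = 0.0381, adjusted p = 0.444 from edgeR), while the major copy had 0.04. With the copies summed the log2 fold changes were 0.06 for CTSB, 0.29 for SQSTM1 and 0.78 for ATG16L1, and the adjusted p-values from edgeR were 0.796, 0.484 and 0.455. How the reads were divided between identical copies was not given in the sources used here, so the share of each copy is uncertain.

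**Figure D4:**
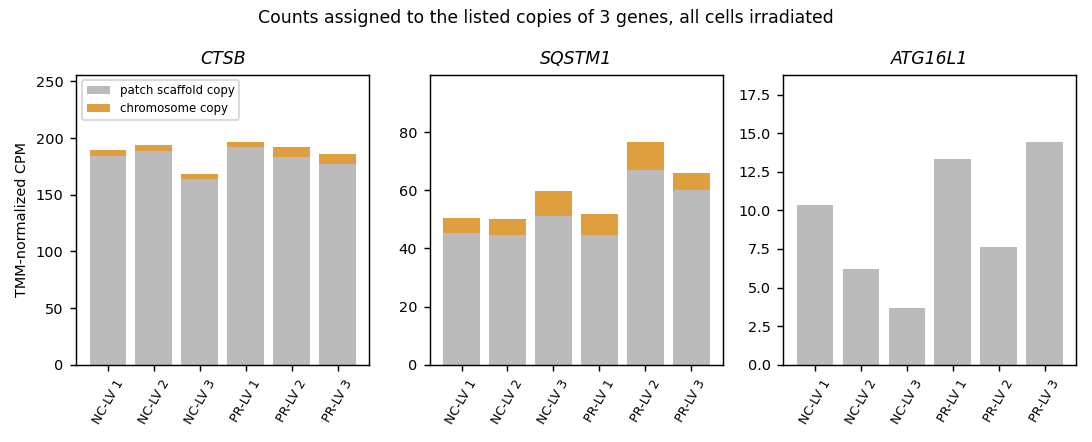
TMM-normalized CPM of CTSB, SQSTM1 and ATG16L1 in each library, stacked by the listed copy that the counts were assigned to (grey, patch scaffold; orange, chromosome). The chromosome copy holds at most 4.79% of CTSB, at most 14.8% of SQSTM1 and none of ATG16L1.

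The rest of the pathway was read from a list of 156 other lysosome and autophagy genes, of which 147 passed the filter on low counts. None passed the threshold. CTSE passed the filter only through the control group, where it was higher, so it is counted below but not ranked. Apart from CTSE, the lowest adjusted p was 0.264 (edgeR, for FLCN). Of the log2 fold changes 78 were above 0 and 69 below, and the median was 0.01. At an unadjusted p under 0.05 there were 20 genes (13.6%, 6 higher and 14 lower in the PRDM16 group), against 10.5% of all genes (4.55% higher and 5.97% lower). Groups did not overlap for 26 genes (17.7%, 8 higher and 18 lower), against 17.0% of all genes (7.46% higher and 9.54% lower).

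The list of lysosomal nutrient signalling and transcription held genes of the complexes that attach mTORC1 to the lysosome and so keep TFEB and TFE3 in the cytoplasm, with the related factor MITF and the repressor ZKSCAN3. All 16 of its tested genes had log2 fold changes below 0, with a median of -0.14, against 0.00 over all genes. An unadjusted p under 0.05 was reached by 5 of the 16 (31.3%), each lower in the PRDM16 group, against 5.97% of all genes in that direction. The groups did not overlap for 8 (50%), each again lower in the PRDM16 group, against 9.54% of all genes. None passed the threshold (lowest adjusted p = 0.264, edgeR). The sign was below 0 for all 16 with the other scalings, filters, DESeq2 and summed copies, and for 14 or 15 of them when 1 library was left out.

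FLCN and its partners FNIP1 and FNIP2 activate the RagC and RagD GTPases, coded by RRAGC and RRAGD, which present TFEB and TFE3 to mTORC1. FLCN was at 52.5, 51.0 and 55.8 CPM in the control group and 46.4, 42.3 and 43.5 CPM in the PRDM16 group. FNIP1 was at 139, 123 and 146 CPM against 110, 111 and 120 CPM, and FNIP2 at 59.1, 53.8 and 65.7 CPM against 49.4, 47.8 and 50.1 CPM. The groups did not overlap for any of these genes. The log2 fold changes were -0.27 for FLCN, -0.26 for FNIP1 and -0.28 for FNIP2, with unadjusted p-values of 0.00461, 0.00772 and 0.00894 and adjusted p-values between 0.264 and 0.326 from edgeR. All 3 kept an unadjusted p under 0.05 whichever library was left out.

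RRAGD was at 34.8, 36.7 and 35.1 CPM in the control group and 27.9, 31.4 and 30.4 CPM in the PRDM16 group, a log2 fold change of -0.24 (SE 0.08, adjusted p = 0.348 from edgeR). RRAGC, named after its values were seen, was at 118, 120 and 105 CPM against 95.4, 101 and 98.8 CPM, a log2 fold change of -0.22 (SE 0.07, adjusted p = 0.346 from edgeR). Groups did not overlap for either gene. MTOR itself had -0.03. The LAMTOR genes, which code for the anchor of the Rag GTPases, had values from -0.19 to -0.02 with overlapping groups for the 5 of them. The lowest of these, LAMTOR2 (-0.19) and LAMTOR4 (-0.18), were within 1 SE of the value of RRAGC. CACGTG was present in 5 of the 21 promoter windows of this list (23.8%), against 9.17% of the windows of genes tested. The share was similar for the members (18.4%) and for all the other lysosome and autophagy genes (19.3%), which include this list. Of the 5 genes above, RRAGD had no promoter entry, and the windows of RRAGC and FNIP1 held the motif, not within TCACGTGA. FNIP1 held 2 such sites, and the one nearer the start is printed.
RRAGC (chr1:38859870-38859893, minus strand): tgattccggCACGTGacggggcac
FNIP1 (chr5:131797097-131797120, minus strand): gcgcgccgcCACGTGatgcggccc

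Among the other hydrolases, LIPA, the acid lipase that frees cholesterol from its esters, was at 148, 158 and 141 CPM in the control group and 163, 195 and 182 CPM in the PRDM16 group. Without overlap between the groups, the log2 fold change was 0.27 (SE 0.08, adjusted p = 0.307 from edgeR). PPT1, which removes palmitate from proteins, had 0.15, also without overlap. The acid phosphatase ACP5 had -0.23. CTSE, an aspartic protease of endosomes, had -1.74 (SE 0.39, adjusted p = 0.194 from edgeR). Its level was low, at 0.600 ± 0.0480 CPM in the control group and 0.181 ± 0.0502 CPM in the PRDM16 group (SD, n = 3). The counts were 11, 12 and 8 in the control libraries and 4, 4 and 3 in the PRDM16 libraries. CTSE passed the filter on low counts only through the control group, where it was higher, so its value is not ranked here. It dropped out with the filter of 10 counts per library.

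Of the autophagy genes that act at the phagophore, UVRAG and AMBRA1, both partners of beclin, had log2 fold changes of -0.24 and -0.23. ATG2B, which carries lipid into the growing membrane, had -0.25, while PIK3C3, the catalytic subunit of the beclin complex, had 0.16. Of the genes for fusion with the lysosome, the tether EPG5 had -0.22. The adaptor PLEKHM1 had 1.66 (SE 0.45, adjusted p = 0.272 from edgeR) on 1 of its 3 listed copies, at 1.49, 0.522 and 1.15 CPM in the control group and 4.59, 3.68 and 1.52 CPM in the PRDM16 group. With the 3 copies summed it was 0.82 (adjusted p = 0.455 from edgeR). The same copy alone passed the threshold with DESeq2 (adjusted p = 0.0415) and in edgeR without the filter on low counts (adjusted p = 0.000223). Its counts were low, at 25, 11 and 16 in the control libraries and 77, 103 and 28 in the PRDM16 libraries. Control replicate 2 fell below the level of the filter, so the control group alone would not have carried the copy through. Its value is therefore not ranked here.

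Of the other membrane proteins, LAPTM4B, a regulator of lysosomal ceramide and amino acid handling, was at 1050, 1072 and 880 CPM in the control group and 1089, 1194 and 1154 CPM in the PRDM16 group, a log2 fold change of 0.19 (adjusted p = 0.451 from edgeR). CLN3, mutated in juvenile Batten disease, had -0.19. CD68, a lysosomal glycoprotein abundant in macrophages, had -0.22 with overlapping groups. The summed macrophage markers were also lower in the PRDM16 group. PTPRC, TYROBP and CD163 were at or near 0 in both groups, while CSF1R, CD14, FCER1G and ITGAM were detected. The part of these markers in the CD68 value was not tested. In the proton pump, ATP6V0D2, an alternative of ATP6V0D1, had -0.71 at 1.17 ± 0.232 CPM in the control group and 0.708 ± 0.0653 CPM in the PRDM16 group (SD, n = 3). In bulk libraries such as these, fewer cells that express a gene and less RNA per cell cannot be told apart.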

How the data were processed

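Oligo(dT) beads were used to select RNA, read pairs were sequenced, and low-quality and adapter reads were discarded by the authors. The submitters' processing notes name CASAVA, featureCounts 2.0.1, DESeq2 1.16.1 and hg38, with no roles. The aligner and the strand setting of the counting are not given in the sources used here, so reads of genes on opposite strands cannot be told apart. The authors deposited 3 values per gene, namely raw counts, TPM and FPKM. TPM was used for levels between genes, FPKM was not used, and the tests used the deposited counts.

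Counts were compared with edgeR 4.0.16 in R 4.3.3 (TMM normalization with factors from 0.981 to 1.04, filterByExpr at its defaults, 10 counts per library and 15 in total, quasi-likelihood test, no covariates), with Benjamini-Hochberg adjustment over the 15340 genes and gene copies tested and a threshold of 0.05. The biological coefficient of variation was 0.106. CPM values are TMM-normalized. A count of 0 allows 0.105 to 0.224 CPM, taken as 3 counts of the library total. Intervals and floors cover counting error only where they come from counts, because no molecular identifiers were used and reads can share a molecule. The procedure was tested on simulated data. Where a gene had several listed copies, the one with the most counts was used.

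The members and lists were chosen with earlier results of these data known, so no list was tested as a set. Values in every library are given for GLB1, TFEB, TFE3, SQSTM1, MAP1LC3B and LAMP1, for members with an unadjusted p under 0.05, and for the most and least abundant member of each role. Of the other pathway genes, those with an unadjusted p under 0.05 are named, up to 4 per direction and role, and RRAGC was named outside this rule. One gene that the rule names is not reported here. Alternatives were summed copies, DESeq2 1.42.0, scaling by RLE or upper quartiles, a filter of 1 count in all or of 10 counts per library, a replicate block, and the removal of single libraries. Total-count scaling was added after seeing the data.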

Additional observations from a re-analysis of the deposited data

How the results depend on the processing

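With no member past the threshold, the number of members stayed at 0 in every setting except without a filter on low counts, where it was 1 (ATG16L1, log2 fold change 0.79, adjusted p = 0.026 from edgeR). The number of all genes past the threshold, 10, became 166 with DESeq2, 342 with no filter on low counts and 3 with the replicate block, and ranged from 1 to 28 when 1 library was left out (1 without the first control or the third PRDM16 library, 28 without the second control library). The cause was not tested. The number of members with an unadjusted p under 0.05 ranged from 0 to 9 when 1 library was left out, and the median of the members from -0.034 (without IR+NC-LV replicate 3) to 0.048. The median of the other pathway genes was -0.033 with total-count scaling. That scaling shifted the median log2 ratio of all genes from 0.0045 to -0.037.

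The sign changed with total-count scaling for 7 members whose values lay near 0: GLB1 (-0.0030), CTSZ (-0.027), CTSC (-0.012), ATP6AP1 (-0.0048), GABARAPL2 (-0.0086), BECN1 (-0.011) and ATG12 (-0.0058). With 1 library left out, 16 members changed sign and 22 did not. The ranges were -0.032 to 0.120 for GLA, -0.049 to 0.218 for GAA, -0.011 to 0.122 for FUCA1, -0.054 to 0.055 for CTSZ, -0.093 to 0.0033 for CTSA, -0.147 to 0.219 for CTSS, -0.014 to 0.079 for CTSB and -0.077 to 0.094 for CTSC. They were -0.0061 to 0.153 for ASAH1, -0.030 to 0.099 for ATP6AP1, -0.355 to 0.071 for TFEB, -0.054 to 0.093 for GABARAPL2, -0.011 to 0.051 for BECN1, -0.222 to 0.095 for ULK1, -0.075 to 0.048 for WIPI1 and -0.035 to 0.119 for ATG12.

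Same-numbered libraries shared little of their deviation (correlations of -0.0088, 0.051 and 0.071), and not every library correlated best with its own number. Correlations this weak, from 3 libraries a group, cannot show whether the numbers pair the samples. With the replicate block, 6 members instead of 4 had an unadjusted p under 0.05 and none passed the threshold. Counts were low for ATG16L1 (51 to 266 per library) and TFEB (67 to 121), which limits their precision.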
